A study of Mus musculus with 12 samples.

Results

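YE mammary tumours were set against mammary tumours of NDL25, the parental strain, in 4 RNA pools out of the 12 of the series. The members were chosen by title alone: 2 pools are titled YE and 2 are titled NDL25. Both strains are mice with an activated neu transgene, the rat ErbB2 gene, under the MMTV promoter, which drives expression mainly in mammary epithelium. YE tumours came from strain MMTV/neundl-YE, and NDL25 tumours came from the parental strain MMTV/neu NDL2-5. The transgene of every strain carries the NDL deletion, a small loss from the extracellular part of the receptor that lets it signal without ligand. The remaining pools came from YD, YC, YB and NYPD tumours, 2 pools for each strain, and these strains enter below only for the spread between pools and for comparison. All mice were female and had borne tumours for 6 weeks, and no ages are given. Every pool mixes RNA of 5 tumours, with 10 tumours a strain, so differences between single tumours are not visible. The labels do not say whether a strain rests on 1 founder.

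As background, ErbB2 is a receptor tyrosine kinase that has no known ligand of its own and works by pairing with itself or with Egfr, Erbb3 or Erbb4. The active receptor phosphorylates tyrosines in its tail, which then bind adaptor proteins that switch on the Ras to ERK and PI3K to Akt pathways. NYPD lacks the main autophosphorylation sites of the tail, and YB, YC, YD and YE each have 1 of them put back. The parental NDL receptor keeps all of them. The comparison of YE with NDL25 therefore sets tumours driven by a receptor with 1 site against tumours driven by a receptor with the full set.

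Each pool was hybridised on 2 arrays, with the dyes exchanged, against Universal Mouse Reference RNA, which is sold as a blend of RNAs of several mouse cell lines. A level below is the log2 ratio of tumour over this mixture, and a difference is the YE mean minus the NDL25 mean of such levels, with the standard error (SE) of the fit. Median tumour intensity ran from 364.8 to 763.5 units over the 24 arrays and median background intensity from 39 to 64, and the number of pools limits the precision. YE arrays were all extracted in the first of 3 feature extraction sessions and NDL25 arrays all in the second, so a strain effect and a session effect cannot be told apart here. YD arrays were also all extracted in the first session. The 2 YC pools are the ones that bridge the first and second sessions, and values with the session as a block rest on the difference between them. Of YC pool 2 the first array was extracted in the first session and the second array in the second, and the block used the session of the first, so its averaged value mixes both.

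The levels of luminal epithelial genes describe the pools but are no check of the label of mammary tumour, since luminal genes, Elf5 among them, also settled which dye the tumour carried on each array. The median level of the 18 luminal genes was 1.59 and 1.63 in the YE pools, against 1.63 and 1.43 in the NDL25 pools. Elf5, a transcription factor of luminal progenitors, stood at 4.86 and 5.43 in YE and at 4.82 and 4.82 in NDL25. Krt19, a keratin of luminal cells, was far below the reference mixture in both, at -3.07 and -3.09 in YE and at -2.23 and -2.80 in NDL25. Its levels in the 8 other pools ran from -1.99 in a YC pool to 1.48 in a YB pool, and it is named here after its values were seen.

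Erbb2 itself did not separate the strains. On its brightest probe it stood at 3.42 and 3.92 in YE and at 1.64 and 3.92 in NDL25, a difference of 0.89 ± 0.85 (SE, n = 2 pools each, limma adjusted p = 0.88). The groups overlapped, and without NDL25 pool 1 the difference was -0.25. The other 2 Erbb2 probes gave differences of 0.03 and -0.20. The array probes were designed for mouse transcripts, and how well they read the rat transgene was not tested.

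No gene passed the threshold between YE and NDL25. Of 28690 genes tested, 0 had an adjusted p under 0.05 (0%, limma with Benjamini-Hochberg adjustment), while 2174 (7.58%) had an unadjusted p under 0.05, 807 (2.81%) of them higher in YE and 1367 (4.76%) lower. Both YE pools lay above both NDL25 pools for 5895 genes (20.5%) and below both for 5826 (20.3%), so the pools of 40.9% of genes did not overlap. A difference of 2-fold or more was found for 135 genes (0.471%), and in 116 of them (0.404%) the pools did not overlap, 56 with YE higher (0.195%) and 60 with YE lower (0.209%). The median difference over all genes was 0.0002, and the median SE was 0.109. Since nothing passed, 12 genes were named in each direction, only from the 17630 with an ordinary gene symbol. Entries known by a clone name or the like were passed over whatever their p. The named genes were well above background in both strains, at least 2-fold apart and with pools that did not overlap. Among genes that met these conditions they had the smallest unadjusted p. They are given as values and not as calls.

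**Figure D1:**
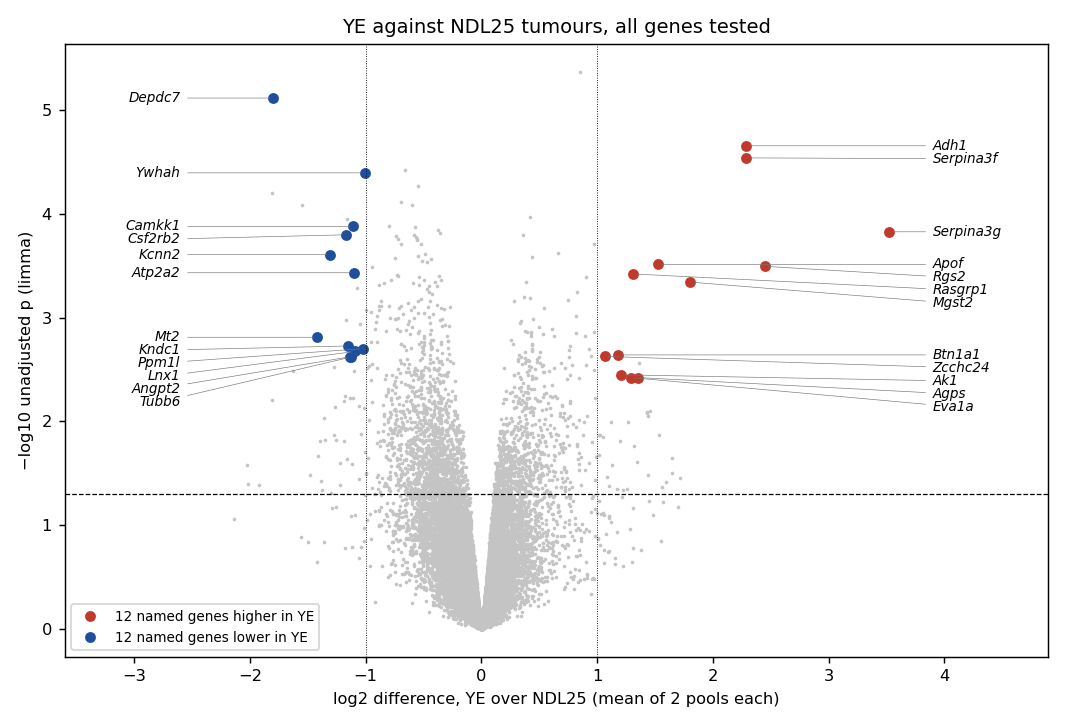
Each point is 1 of the 28690 genes tested, with its log2 difference of YE over NDL25 on the horizontal axis and the negative log10 of its unadjusted limma p on the vertical axis. The dashed line marks an unadjusted p of 0.05, the dotted lines mark 2-fold, and the named genes are coloured. No point passes an adjusted p of 0.05. The point above all others on the right is Slc25a17, whose difference of 0.86 is under 2-fold.

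The largest difference of all 28690 genes was that of Serpina3g, at 3.53 higher in YE. Serpina3g and Serpina3f are neighbouring mouse genes of the serpin cluster on chromosome 12, and both encode serpins of the alpha-1-antichymotrypsin family of protease inhibitors. As background, Serpina3g is known in mouse to be induced by interferon and NF-kappaB signals. The stretch around the start of each gene is shown because the 2 genes stood high together in YE: 250 bases before the start and 50 after it, from RefSeq on build GRCm38.p6. Serpina3g lies at chr12:104235897-104236196 and Serpina3f at chr12:104214294-104214593, both on the plus strand. For Serpina3f the table lists 2 starts, and the first is shown. Capitals mark TTCNNNGAA, the core of the interferon gamma activated site, which reads the same on both strands.
Serpina3g: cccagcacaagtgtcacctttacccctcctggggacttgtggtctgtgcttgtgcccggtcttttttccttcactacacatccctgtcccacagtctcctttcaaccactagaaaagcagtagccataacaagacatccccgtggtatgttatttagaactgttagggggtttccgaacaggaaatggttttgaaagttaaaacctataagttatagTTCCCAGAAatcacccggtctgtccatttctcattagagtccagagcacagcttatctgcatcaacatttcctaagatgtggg
Serpina3f: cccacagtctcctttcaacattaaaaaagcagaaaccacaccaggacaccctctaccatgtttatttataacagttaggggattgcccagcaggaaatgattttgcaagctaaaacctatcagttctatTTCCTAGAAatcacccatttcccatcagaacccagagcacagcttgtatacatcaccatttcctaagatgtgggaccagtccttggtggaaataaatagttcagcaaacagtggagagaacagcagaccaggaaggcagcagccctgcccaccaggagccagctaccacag

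Each stretch held the pattern 1 time. It began 33 bases before the start of Serpina3g and 121 bases before that of Serpina3f. Of the 32851 promoters of 300 bases in the table, 8.3% hold it. The 2 stretches could be aligned over 202 bases, of which 83.7% were identical. Since the genes are close copies, probes of one may also read the other, and this was not tested because probe sequences were not used here.

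Serpina3g stood at 2.67 and 3.49 in the YE pools, against -0.32 and -0.57 in the NDL25 pools. The difference of 3.53 ± 0.51 (SE, n = 2 pools each) corresponds to 11.5-fold, with an unadjusted p of 0.000149 and an adjusted p of 0.19 in limma. Both YE pools lay above the 10 other pools of the series, the highest of which was NYPD pool 1 at 1.01. With the session as a block the difference was 4.11.

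Serpina3f stood at 2.22 and 2.83 in YE, against 0.28 and 0.19 in NDL25, a difference of 2.29 ± 0.26. A second probe of the gene gave 2.69. As with its neighbour, both YE pools were above the 10 other pools, and the next was again NYPD pool 1, at 1.2. The difference was 2.57 with the session as a block. Against the within-session strain YD, whose pools had 0.19 and 0.07 for Serpina3f and -0.50 and -0.67 for Serpina3g, both YE pools were also higher.

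Adh1, an alcohol dehydrogenase that also oxidises retinol, stood at 2.20 and 2.63 in YE and at 0.27 and -0.01 in NDL25. The difference was 2.29 ± 0.25, and a second probe gave 2.80. YE again held the highest 2 of the 12 pools, with YB pool 2 next at 1.31. The difference was 1.89 with the session as a block.

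Rgs2, which switches off Gq-coupled receptors by speeding up GTP hydrolysis, had levels of 2.91 and 3.39 in YE and 0.56 and 0.84 in NDL25. The difference was 2.45 ± 0.40, but it was 0.93 on the gene's other probe and 1.16 in the ratios that the authors deposited. Rasgrp1, a diacylglycerol-activated exchange factor that loads Ras with GTP, stood at -0.77 and -0.54 in YE against -1.97 and -1.96 in NDL25. Its difference of 1.31 ± 0.22 was not seen on its other probe, which gave 0.02. The deposited ratios gave 2.12 for Rasgrp1.

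Apof, apolipoprotein F of plasma lipoproteins, stood at 2.6 and 3.30 in YE against 1.13 and 1.72 in NDL25. Mgst2, a microsomal glutathione transferase that can make leukotriene C4, was at -0.50 and -0.39 in YE and at -2.47 and -2.02 in NDL25. Both genes had the YE pools above the 10 others, with differences of 1.53 ± 0.25 for Apof and 1.80 ± 0.31 for Mgst2. Agps, a peroxisomal enzyme of ether lipid synthesis, differed by 1.35 ± 0.33 on its brightest probe and by 0.52 on its other one. Agps differed by 1.98 with the session as a block.

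The remaining 4 genes on the higher side differed by 1.06 to 1.29. Ak1, an adenylate kinase that is abundant in muscle, had levels of 1.34 and 1.33 in YE and of 0.12 and 0.13 in NDL25. Eva1a, a membrane protein linked to autophagy, had 1.84 and 2.09 in YE and 0.38 and 0.97 in NDL25, and Zcchc24, a zinc finger gene, had 0.20 and 0.48 in YE and -0.76 and -0.69 in NDL25. In all 3 the YE pools lay above the 10 others. Btn1a1, the butyrophilin of the milk fat globule membrane, showed another pattern. It stood at 2.16 and 1.76 in YE and at 0.79 and 0.76 in NDL25, and here the NDL25 pools were the 2 lowest of the 12 while YE lay within the range of the other strains.

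On the lower side Depdc7, a DEP domain protein, had the smallest p. It stood at -2.34 and -2.39 in YE and at -0.42 and -0.71 in NDL25, a difference of -1.80 ± 0.17 (limma adjusted p = 0.11). The 8 pools of YD, YC, YB and NYPD lay in between, from -2.10 to -1.55, so NDL25 was above all other strains and YE below all of them. The adjusted p was 0.0424 with the session as a random block, and 0.0151 when either NYPD pool was left out, and the difference was -1.87 with the session as a fixed block.

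Ywhah, the eta form of the 14-3-3 phosphoserine-binding proteins, stood at -0.50 and -0.79 in YE and at 0.43 and 0.30 in NDL25. The difference of -1.01 ± 0.12 came with YE below the 10 other pools, the lowest of which was at -0.09. Tubb6, a beta-tubulin, had -2.76 and -2.90 in YE against -1.75 and -1.66 in NDL25, and its second probe gave a difference of -0.19. Tubb6 differed by -0.70 with the session as a block.

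Camkk1, a kinase that calcium and calmodulin switch on and that acts upstream of AMPK, stood at -1.14 and -1.18 in YE and at 0.07 and -0.18 in NDL25. The NDL25 pools were above the 10 others and the YE pools below the 10 others, the next being YC pool 1 at -1.07. Kcnn2, a calcium-activated potassium channel, stood at 0.58 and 0.51 in YE and at 2.15 and 1.54 in NDL25. Atp2a2, the calcium pump of the endoplasmic reticulum that heart and slow muscle use in large amounts, was at -0.83 and -1.03 in YE and at 0.26 and 0.08 in NDL25. Its difference of -1.10 ± 0.18 was matched by 1 further probe at -1.09, while the other 2 probes gave -0.07 and -0.05. For Kcnn2 the second probe gave -0.48.

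Csf2rb2, a mouse receptor subunit for interleukin 3, stood at -1.13 and -1.15 in YE and at -0.21 and 0.28 in NDL25. Mt2, a metal-binding metallothionein, had -2.44 and -2.78 in YE and -0.85 and -1.54 in NDL25. Angpt2, a ligand of the endothelial receptor Tie2 that loosens vessel walls, was at 0.58 and 0.52 in YE and at 2.06 and 1.31 in NDL25. The differences were -1.17 ± 0.17 for Csf2rb2, -1.42 ± 0.30 for Mt2 and -1.14 ± 0.26 for Angpt2. The Csf2rb2 pools of YE were the 2 lowest of the 12, while those of Angpt2 were not, since YC pool 1 was at 0.22.

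In 3 genes the NDL25 pools stood above the 10 others and the YE pools were within the range of the other strains. Kndc1, a Ras exchange factor with a kinase-like domain, was at 0.54 and 0.46 in YE against 1.71 and 1.60 in NDL25. Lnx1, a ubiquitin ligase that targets Numb, was at 1.88 and 2.15 in YE against 3.13 and 3.08 in NDL25. Ppm1l, a protein phosphatase, was at -1.0 and -0.69 in YE against 0.36 and -0.02 in NDL25. In each of the 3 most further probes did not show it: Kndc1 gave -0.01 on 3 other probes, Lnx1 gave -0.90, 0.07 and 0.02, and Ppm1l gave -0.25 and 0.05.

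Over the named genes, both YE pools lay outside the range of the 10 other pools in 11 of the 12 on the higher side and in 8 of the 12 on the lower side. Both NDL25 pools did so in 2 and in 5 genes. Over all genes, both YE pools were above the 10 others in 799 (2.78%) and below in 859 (2.99%), and both NDL25 pools were above in 883 (3.08%) and below in 521 (1.82%). The rule chose the genes for the difference between YE and NDL25, so their counts are a description. The adjusted p ran from 0.19 to 0.36 over the 12 higher genes and from 0.11 to 0.35 over the 12 lower genes.

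**Figure D2:**
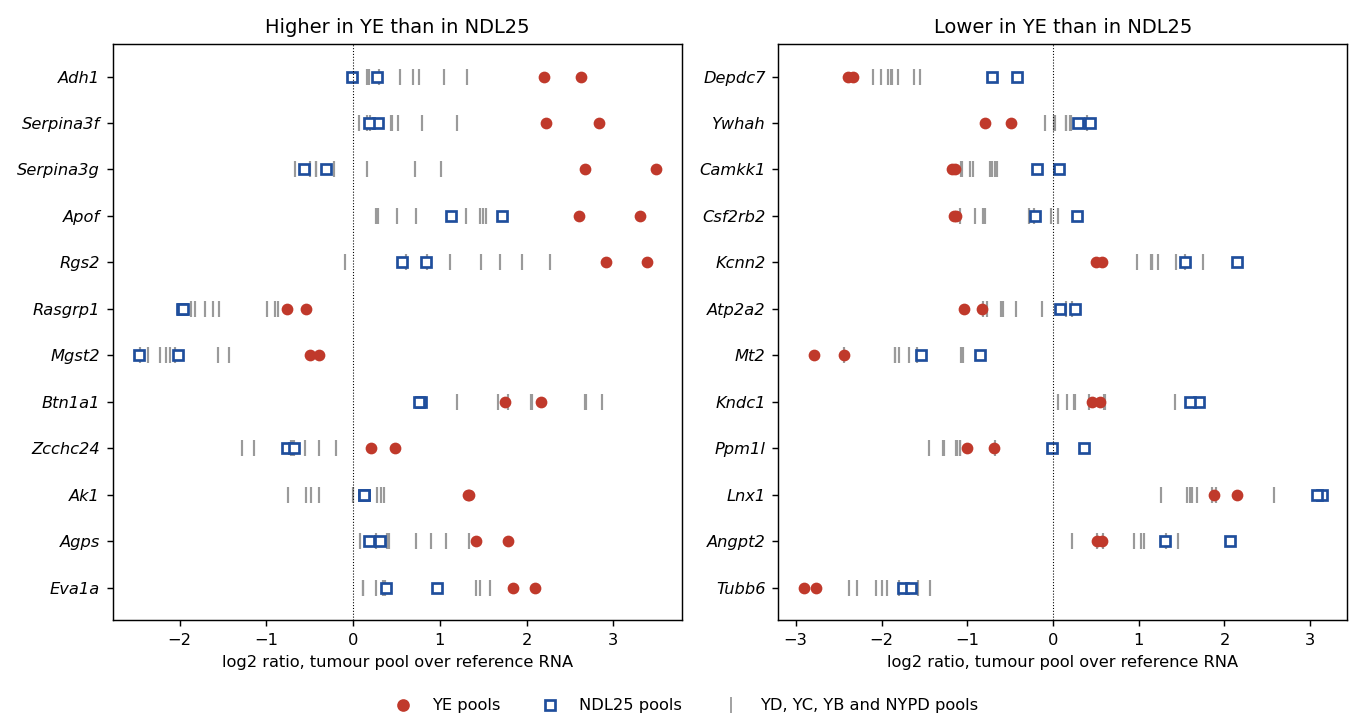
Each row is a named gene and each mark 1 pool, placed by its log2 ratio of tumour over reference RNA; filled circles are YE, open squares are NDL25 and grey bars are YD, YC, YB and NYPD. In 11 of the 12 genes on the left the YE circles lie beyond all other marks, while for Btn1a1 the NDL25 squares do. On the right Depdc7 and Camkk1 have YE and NDL25 at opposite ends.

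Gene lists were described next, by the difference of their tested members, their median and how many members had both YE pools on 1 side of both NDL25 pools. For all genes the median was 0.0002, with 20.5% above and 20.3% below. No member of any list passed the adjusted threshold, so the counts of unadjusted p under 0.05 are given beside the background of 2.81% higher and 4.76% lower. Of 498 list genes, 484 were tested.

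Genes that present antigen lay higher in YE. These genes cut proteins into peptides, carry the peptides into the endoplasmic reticulum and show them on MHC molecules. All 16 tested members had a positive difference, the median was 0.30, and 12 of 16 had both YE pools above both NDL25 pools, with 0 below. The unadjusted p was under 0.05 in 3 members. The list's median level was 1.0 and 1.19 in YE and 0.59 and 0.85 in NDL25, and NDL25 pool 1 was the lowest of the 12 pools. With the session as a block the median difference was 0.50.

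Psmb9, a subunit of the immunoproteasome, stood at 1.94 and 2.38 in YE and at 0.79 and 1.62 in NDL25, a difference of 0.95 ± 0.42 that was 0.54 without NDL25 pool 1. Psmb8, another immunoproteasome subunit, differed by 0.65 ± 0.26, and by 0.39 without NDL25 pool 1. Tap2, which forms part of the peptide transporter, had 0.55 and 0.71 in YE and 0.17 and 0.30 in NDL25. B2m, the light chain of MHC class I, had 0.46 and 0.96 in YE and 0.13 and 0.41 in NDL25. The B2m pools did not overlap, though the difference of 0.44 ± 0.17 was 0.19 without YE pool 2. YE was not apart from the other strains in these genes: YC had 2.68 and 2.32 for Psmb8, and its pools were above both YE pools for Tap2.

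The interferon response list did not follow the antigen presentation list. Its median difference was -0.22, 11 of its 22 members had both YE pools below both NDL25 pools and 1 had them above, and 0 had an unadjusted p under 0.05. The list's median turned to 0.20 with the session as a block, and was -0.055 without YE pool 1 and -0.41 without YE pool 2. Cxcl10, an interferon-induced chemokine that attracts T cells, stood at -1.76 and -1.45 in YE and at -0.08 and -0.58 in NDL25, and its difference of -1.28 ± 0.40 was 0.09 with the session as a block. Cxcl12, a stromal chemokine, differed the other way, by 0.55 ± 0.18, and by 0.20 on its second probe. The chemokine list as a whole had a median of -0.14, with 4 of 22 members above and 8 below, and this was 0.026 with the session as a block.

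Milk genes were higher in YE than in NDL25 as a median but did not move as a group. The list's median level was 1.77 and 1.16 in YE and 0.94 and 0.81 in NDL25. The pools of YD, YC, YB and NYPD had 1.29 to 2.66, so NDL25 was the lowest strain and YE was not high among the strains. The 14 tested members ran from -1.41 to 1.18 with a median of 0.36, and 4 had both YE pools above both NDL25 pools and 1 below. The median was 0.67 without YE pool 2, 0.17 without YE pool 1 and 0.13 without NDL25 pool 2, and 0.21 with the session as a block. Ltf, lactotransferrin, stood at 2.35 and 1.84 in YE and at 1.38 and 1.47 in NDL25, a difference of 0.67 ± 0.23 that was 0.29 with the session as a block. Lalba, alpha-lactalbumin of lactose synthesis, went the other way. It stood at 2.55 and 1.06 in YE and at 3.13 and 3.31 in NDL25, a difference of -1.41 ± 0.49, which was -0.67 without YE pool 2.

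Of the caseins, Csn1s1 stood at 5.28 and 4.53 in YE and at 4.39 and 3.79 in NDL25. Csn2 stood at 5.93 and 6.03 in YE and at 6.03 and 4.26 in NDL25, so that its groups overlapped and the difference of 0.84 ± 0.84 became -0.05 without NDL25 pool 2. The other epithelial lists were near the median of all genes: luminal genes had a median of -0.03, basal and myoepithelial genes 0.03 and squamous genes 0.01. Krt7, a keratin of simple epithelia, was the 1 luminal gene with an unadjusted p under 0.05, and its difference of 0.45 ± 0.13 was 0.22 with the session as a block.

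**Figure D3:**
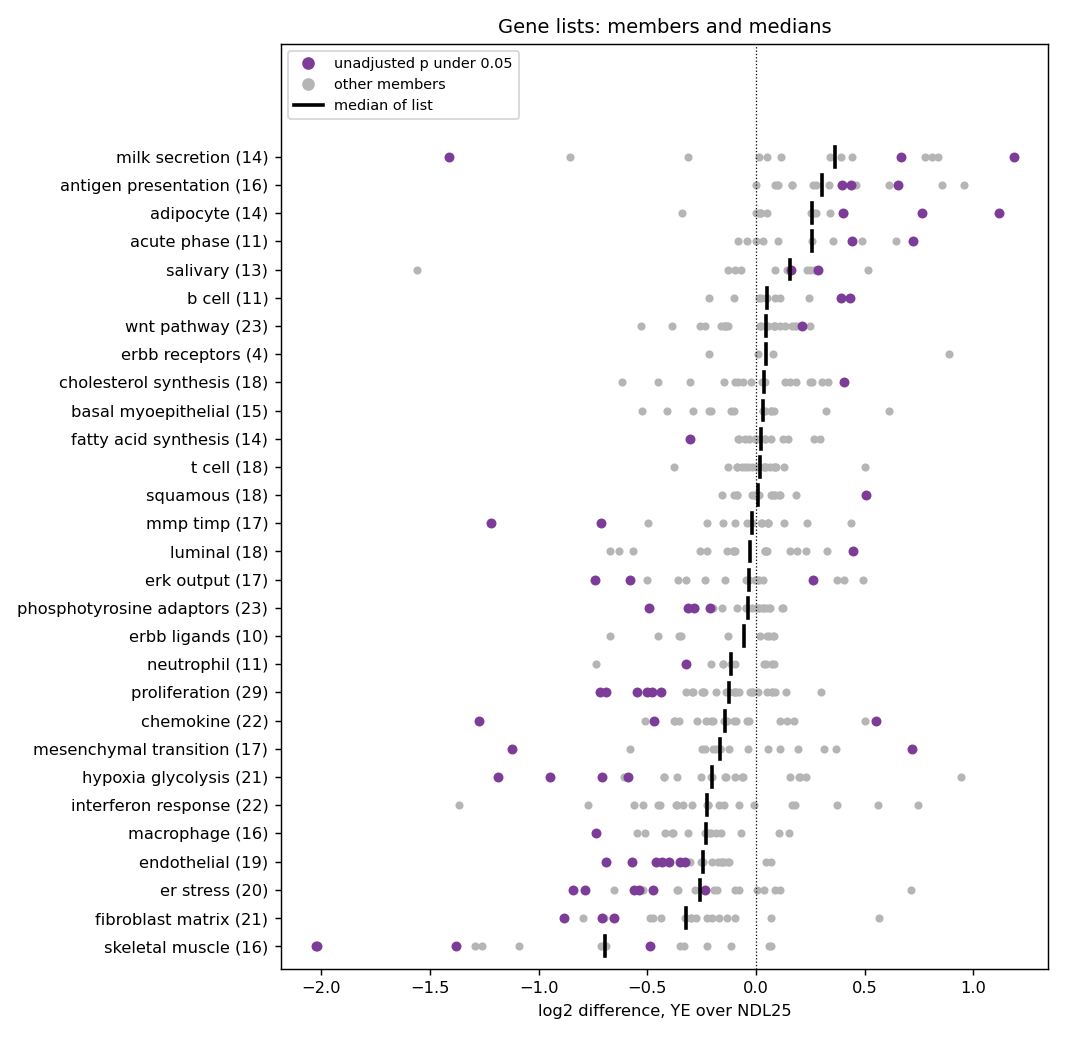
Each row is a gene list with its number of tested genes, each point is a member placed by its log2 difference of YE over NDL25, and the black bar is the median of the list. Purple points have an unadjusted limma p under 0.05. All points of the antigen presentation list lie at or above 0, and 14 of the 16 skeletal muscle points lie below 0.

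Markers of other cell types that a tumour piece can hold differed between the pools. In bulk RNA, fewer cells of a type and less RNA per cell cannot be told apart. Skeletal muscle genes had the lowest median of the lists, -0.70, with 12 of 16 members having both YE pools below both NDL25 pools and 1 above. Their median level was -0.06 and -0.01 in YE and 0.47 and 0.23 in NDL25, and the YC and NYPD pools each ranged more widely, from 0.06 to 0.84 in YC and from -0.06 to 0.67 in NYPD.

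Myl1, a myosin light chain of fast fibres, had -1.57 and -1.10 in YE and 1.06 and 0.31 in NDL25. Myh4, a fast myosin heavy chain, had 0.28 and 0.14 in YE and 2.12 and 2.34 in NDL25. Acta1, the actin of skeletal muscle, had -2.76 and -2.73 in YE and -0.99 and -1.75 in NDL25. None of the 3 had overlapping groups, and the differences were -2.02 ± 0.74, -2.02 ± 0.82 and -1.38 ± 0.58. With the session as a block, Myl1 differed by -4.28, Myh4 by -4.29 and Acta1 by -3.0, and the list's median was -1.60. Pvalb, a calcium buffer of fast fibres, was not well above background in YE. Its signal there was 1.35-fold lower than in NDL25 (limma adjusted p = 0.89). For a bound, the YE signal was taken as no lower than the dimmest signal well above background on each array. This changed nothing for Pvalb, so 1.35-fold is the measured difference and not a bound. Since Ak1 and Atp2a2 are also used by muscle, these levels are given beside them. Atp2a2 was lower in YE, by -1.10, as the muscle list was, while Ak1 went the other way, at 1.21 higher. The part of muscle in their differences was not tested.

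Adipocyte genes were the opposite. Their median difference was 0.26, and 9 of 14 members had both YE pools above both NDL25 pools, with 1 below. Cfd, adipsin, stood at 4.27 and 4.58 in YE and at 2.91 and 3.71 in NDL25. Its difference of 1.12 ± 0.33 was 0.35 with the session as a block and 0.72 without NDL25 pool 1. Adipoq, the hormone adiponectin, stood at 1.66 and 1.68 in YE and at 0.73 and 1.09 in NDL25, and its difference of 0.76 ± 0.21 was 0.45 with the session as a block. Retn, the hormone resistin, differed by 0.40 ± 0.10, and by 0.82 on its second probe. The list's median was 0.11 with the session as a block. YD and YB pools had adipocyte medians of 0.51 to 0.72, above the 0.39 and 0.41 of YE and the 0.22 of both NDL25 pools.

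Endothelial genes lay lower in YE, with a median of -0.24. Of the 19 members, 13 had both YE pools below both NDL25 pools and 1 above, and 7 had an unadjusted p under 0.05. Kdr, the main receptor for VEGF, stood at 2.07 and 2.16 in YE and at 2.74 and 2.64 in NDL25, a difference of -0.57 ± 0.16. Robo4 of endothelial guidance, at -0.46 ± 0.15, and Cdh5, the cadherin of endothelial junctions, at -0.69 ± 0.27, were in the same direction. Without NDL25 pool 1 they were -0.22 and -0.28, and the second Cdh5 probe gave -0.24. The list's median was -0.14 without NDL25 pool 1, -0.37 without NDL25 pool 2 and -0.44 with the session as a block. Cd34, a surface protein of vessels and stem cells, differed by -0.43 ± 0.16 and, with the session as a block, by -0.85, while Kdr differed by -0.91 with that block. Angpt2, which differed by -1.14, is made by endothelial cells too, and the part of the endothelial level in it was not tested.

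Macrophage and fibroblast genes also lay lower. The macrophage median was -0.23, with 12 of 16 members below and 0 above, but the median levels of 0.59 and 0.05 in YE and of 0.58 and 0.71 in NDL25 overlapped. Lyz2, the lysozyme of macrophages and neutrophils, stood at 1.44 and 1.12 in YE and at 1.84 and 2.19 in NDL25, a difference of -0.74 ± 0.19 that was -0.07 on its second probe. Without YE pool 1 the macrophage median was -0.37. Among 21 fibroblast and matrix genes, 11 were below and 1 above, with a median of -0.32, which was -0.51 without YE pool 1 and -0.56 with the session as a block. Median levels of this list were -1.31 and -1.59 in YE and -1.29 and -1.25 in NDL25, so YE pool 1 lay close to NDL25. YC pool 1, at -1.35, was below YE pool 1. Fbn1, a microfibril protein, differed by -0.88 ± 0.35 and its second probe by -0.77. Col6a3, a collagen VI chain, differed by -0.71 ± 0.28, by -0.37 without NDL25 pool 1, and by -0.10 and -0.11 on its other probes. The medians of neutrophil, T cell and B cell genes were -0.12, 0.02 and 0.05.

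Stress and nutrient genes came next. For 20 genes of the endoplasmic reticulum stress response, which supply chaperones and folding enzymes to the secretory pathway, the median was -0.26, with 11 below and 1 above, and 6 had an unadjusted p under 0.05. The list's median level was -0.26 and -0.42 in YE and 0.04 and 0.08 in NDL25. The median difference was -0.16 without YE pool 1 and -0.47 with the session as a block. Creld2, a chaperone-like protein of that compartment, stood at -0.42 and -0.54 in YE and at 0.06 and 0.10 in NDL25, and its difference of -0.56 ± 0.08 had an unadjusted p of 0.000174. Dnajc3, a co-chaperone that holds back the kinase PERK, differed by -0.54 ± 0.15, and its 3 other probes gave -0.42 to -0.65. Hyou1, a large chaperone induced by low oxygen, differed by -0.79 ± 0.24 but by -0.18 on its second probe. NDL25 lay above both pools of YC, YD and YB in this list, and YE pool 2 was the lowest of the 12 pools.

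Among 21 genes of hypoxia and glycolysis, 11 were below and 1 above, with a median of -0.20, which was -0.12 without NDL25 pool 1 and -0.13 without YE pool 1. Median levels of this list were -0.39 and -0.34 in YE and -0.26 and -0.21 in NDL25. YE was not the lowest, since YB pool 1 was at -1.01, NYPD pool 1 at -0.49 and YD pool 1 at -0.45. Pool 2 of these strains and both YC pools lay above YE. Slc2a1, the glucose transporter GLUT1, stood at -1.91 and -2.29 in YE and at -1.05 and -1.25 in NDL25. The difference was -0.95 ± 0.20, and both YE pools were below the 10 others. Vegfa, the growth factor that binds Kdr, stood at -0.07 and -0.34 in YE and at 0.52 and 0.24 in NDL25, and its 2 other probes gave differences of -0.38 and -0.71 beside the -0.59 ± 0.16 of the brightest. Adm, the vasodilator adrenomedullin, differed by -0.71 ± 0.19, and by -0.45 without NDL25 pool 1. Ndrg1, a stress protein that low oxygen induces, stood at -3.15 and -3.33 in YE and at -2.07 and -2.03 in NDL25, a difference of -1.19 ± 0.39 that was -2.10 with the session as a block. For Ndrg1 both YE pools were again the 2 lowest of the 12.

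Genes of the cell cycle had a median of -0.13, with 9 of 29 members below and 3 above, and 6 had an unadjusted p under 0.05. Leaving out 1 YE or NDL25 pool moved the median between -0.29 and -0.058, and it was 0.015 with the session as a block. Tyms, thymidylate synthase, stood at -0.51 and -0.50 in YE and at 0.02 and 0.06 in NDL25. Mcm7, part of the helicase that opens DNA for replication, stood at -1.16 and -1.11 in YE and at -0.54 and -0.73 in NDL25. In both, the NDL25 pools were the 2 highest of the 12, and the differences were -0.55 ± 0.10 and -0.50 ± 0.10. Of the other 2 Tyms probes, 1 gave -0.53 and 1 gave 0.06, and with the session as a block the brightest gave -0.30. Bub1 and Cdc20, both of the mitotic checkpoint, differed by -0.72 ± 0.22 and -0.48 ± 0.15.

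**Figure D4:**
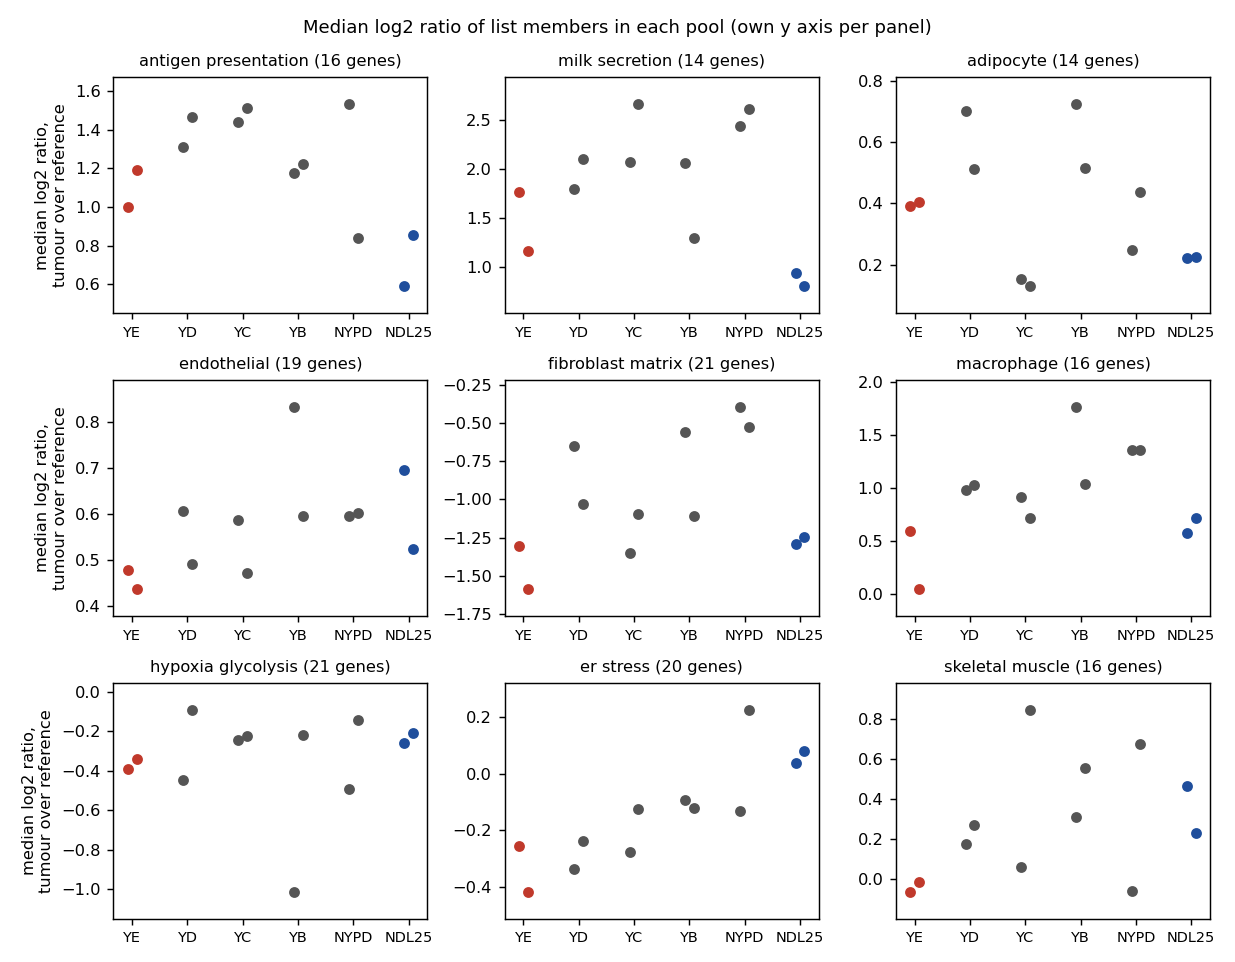
Each panel is a gene list and each point 1 pool, with the median log2 ratio of the list's genes over reference RNA on the vertical axis, which differs between panels. YE is red and on the left, NDL25 is blue and on the right. YE lies below NDL25 in the endothelial, fibroblast matrix, hypoxia, ER stress and skeletal muscle panels and above it in the antigen presentation, milk and adipocyte panels, and the macrophage values overlap. In the fibroblast matrix panel 1 YE point lies close to NDL25.

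No tested gene of the receptor family and its ligands had an unadjusted p under 0.05. Erbb3, the kinase-poor partner of ErbB2, stood at 3.19 and 3.65 in YE and at 3.71 and 3.57 in NDL25, a difference of -0.22 ± 0.19. Its 4 other probes gave -0.01 to 0.02. Erbb4 and Egfr differed by 0.08 ± 0.06 and 0.01 ± 0.28. Of 10 tested ligand genes of the family, 2 had both YE pools above and 4 below. Egf, a ligand of Egfr, differed by -0.45 ± 0.29 and Areg, amphiregulin, by -0.67 ± 0.49. Egf differed by -1.36 and Areg by -1.03 with the session as a block.

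The 23 tested genes for adaptors of phosphotyrosine and their partners had a median of -0.03, with 1 above and 5 below. In this list 4 had an unadjusted p under 0.05, all lower in YE. Sos2, an exchange factor that Grb2 brings to Ras, differed by -0.21 ± 0.06. Ptpn11, the phosphatase SHP2, differed by -0.28 ± 0.09 and, with the session as a block, by -0.14, and its other probes gave -0.08 and -0.17. The 17 tested genes that ERK signalling is known to induce also had a median of -0.03, with 3 above and 8 below. Spry4, a feedback inhibitor of the pathway, stood at 1.55 and 1.53 in YE and at 2.35 and 2.21 in NDL25. Its difference of -0.74 ± 0.18 was -0.15 with the session as a block and -0.10 on its second probe. Ier3, an early response gene, differed by -0.58 ± 0.25, and by -0.23 without YE pool 2.

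The acute phase list had a median of 0.26, with 6 of 11 members above and 1 below. Its median level was 0.11 and 0.09 in YE and 0.03 and -0.06 in NDL25. The pools of YD, YC, YB and NYPD had 0.13 to 1.09, so NDL25 was the lowest strain and YE the next lowest. The median difference was 0.13 without NDL25 pool 2, 0.42 without YE pool 2 and 0.082 with the session as a block. Lbp, which hands bacterial lipopolysaccharide to CD14, stood at 2.39 and 2.09 in YE and at 1.77 and 1.82 in NDL25. Hp, haptoglobin, stood at 1.34 and 1.40 in YE and at 0.45 and 0.84 in NDL25, but its difference of 0.72 ± 0.30 was 0.02 with the session as a block. The other lists had medians between -0.16 and 0.15: genes of mesenchymal transition -0.16, matrix proteases -0.02, fatty acid synthesis 0.02, cholesterol synthesis 0.04, the Wnt pathway 0.05 and salivary gland genes 0.15.

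YE was also compared with YD and YC, which carry a different single site and, in YD, share the extraction session. Against YD, 5 of 28690 genes (0.0174%) passed an adjusted p of 0.05 in limma, 2 higher in YE (0.00697%) and 3 lower (0.0105%), and 2512 genes (8.76%) had an unadjusted p under 0.05, 4.06% higher and 4.7% lower. Pools of YE and YD did not overlap for 42% of genes, and 0.809% were also 2-fold or more apart. All 5 had an adjusted p of 0.0461. Smoc1 and Ptx3 are at least 2-fold apart; Slc25a17, Pycr1 and Lrrc42 are not, and are named after their values were seen. When any of the 12 pools was left out, none of the 5 stayed past the threshold, and the 0 to 3 genes called in those fits were others. None of the 5 passed either with the replicate block, the session as a fixed or random block, processed signals, median centring, the mean of probes, the deposited ratios, a trend and robust prior or the 2 strains alone.

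Ptx3, a long pentraxin that opsonises microbes, fell to -2.24 and -2.57 in YE, against 0.17 and 0.30 in YD, a difference of -2.64 ± 0.25. NDL25 had -1.96 and -2.55, so YE and NDL25 overlapped and YD stood apart. Smoc1, a matrix protein that binds calcium and BMP pathway members, fell to 0.42 and 0.56 in YE, against 2.48 and 2.97 in YD, a difference of -2.23 ± 0.20. For Smoc1, both YE pools were the lowest of the 12 and both YD pools the highest, with NDL25 at 1.02 and 0.87. YE over NDL25 was -0.15 ± 0.25 for Ptx3 and -0.45 ± 0.20 for Smoc1.

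Lrrc42, a leucine-rich repeat protein, fell to -2.10 and -2.16 in YE, against -1.56 and -1.43 in YD, a difference of -0.64 ± 0.06. Here NDL25 was at -1.78 and -1.84 and YE was below all others. Pycr1, an enzyme of proline synthesis, rose to 0.86 and 1.02 in YE, against 0.14 and -0.05 in YD, a difference of 0.89 ± 0.09. NDL25 was at 0.71 and 0.71 and again between them.

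Slc25a17, a peroxisomal carrier of coenzyme A and related cofactors, rose to -1.80 and -1.76 in YE, against -2.72 and -2.57 in YD, a difference of 0.87 ± 0.08. It took 2 levels over the series. YE and YC had -1.80 to -1.56, and the 8 other pools had -2.98 to -2.57. NDL25 was in the lower set at -2.65 and -2.62, which made it the gene with the smallest p of YE over NDL25, at 0.86 ± 0.08 (limma unadjusted p = 4.26e-06, adjusted p = 0.11). A second probe showed the same 2 levels with a difference of 0.87, while the remaining one gave -0.08. With the session as a random block, whose fitted correlation within sessions was -0.12, its adjusted p against NDL25 was 0.0424 in limma.

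Against YC, 1 gene (0.00349%) passed, and 2314 (8.07%) had an unadjusted p under 0.05, 4.17% higher and 3.89% lower. Pools did not overlap for 39.7% of genes. BC006965, a transcript known by its clone name, fell to 0.28 and 0.25 in YE, against 1.05 and 1.0 in YC, a difference of -0.76 ± 0.06 (limma adjusted p = 0.0343). It is named after its values were seen. The call was lost with processed signals, median centring, the 2 strains alone, the trend and robust prior, the replicate block, the session as a fixed block, and whichever pool was left out. Its levels in NDL25 were 0.27 and 0.28, and all pools but those of YC lay between 0.11 and 0.28. YE over YD and YE over YC share the YE pools with YE over NDL25, so their values are given side by side and not as repeats of each other.

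**Figure D5:**
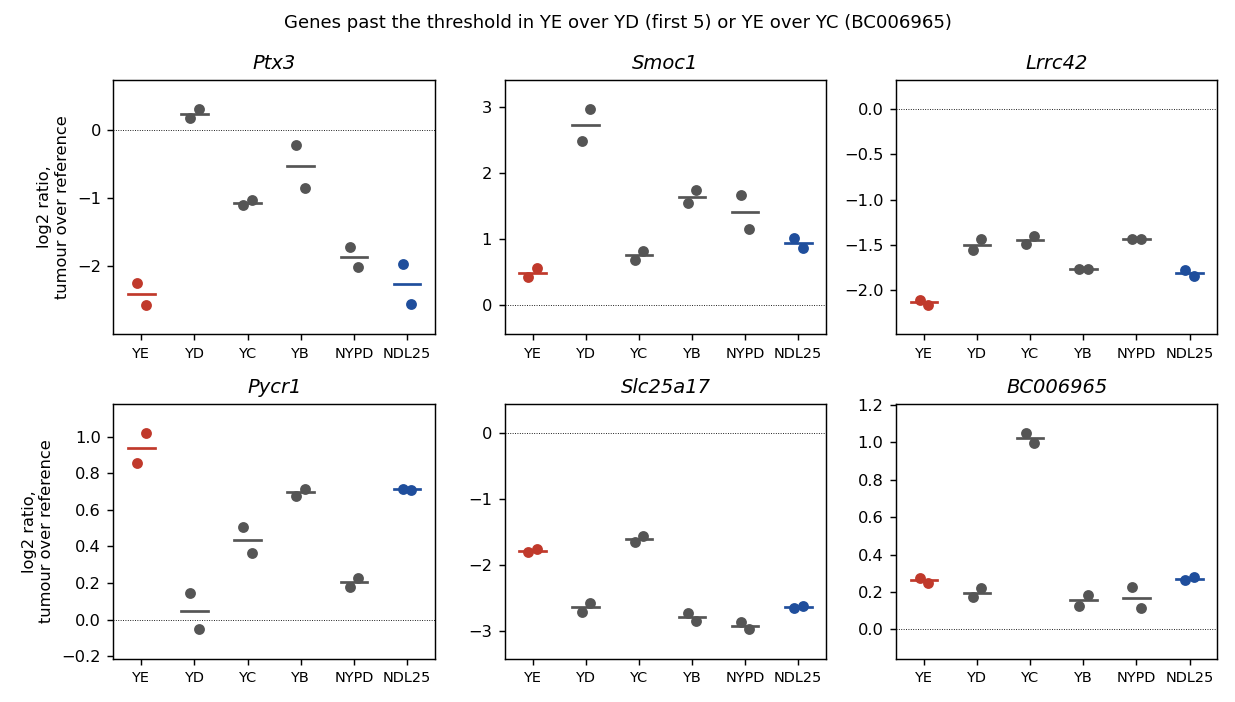
Each panel is 1 of the 6 genes past the threshold in YE over YD or YE over YC, each point is 1 pool with its log2 ratio over reference RNA, and each bar is the mean of 2 pools. For Ptx3, NDL25 overlaps YE. Slc25a17 is high in YE and YC, and BC006965 is high in YC.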

How the data were processed

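Per the labels, total RNA of each pool (500 ng) was amplified in 1 round and hybridised with reference RNA in 2 dye orientations. The scanner files were written by Agilent Feature Extraction and, per the file headers, hold spot and background intensity and a log10 ratio. The authors also deposited 1 ratio per pool and probe, read here as log2 (column medians -4.32e-05 to 0.0185); scale and centring are unknown, and RMA, limma and R 2.3.0 are listed in the submitters' processing notes. The tumour's dye is not given per array. The sign of the median Cy5 over Cy3 log ratio of the 26 probes of the luminal list settled it. Elf5, Cdh1, Cldn3 and Cldn7 had the same sign as that median on all 24 arrays. The 2 arrays of a pair correlated at -0.818 or below before turning.

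Intensities were corrected by normexp (offset 50), normalised by loess in limma 3.58.1 (R 4.3.3, data.table at version 1.17.8), turned and averaged per pool. Spots marked as uneven or outlying and probes well above background on fewer than 4 arrays were left out. Spots saturated in the tumour channel, 58 to 360 an array, were kept. The brightest probe stood for a gene. A 6-strain model of 12 pools left 6 residual degrees of freedom, to which the prior added 1.76; p was Benjamini-Hochberg adjusted over 28690 genes. Pools are biological repeats per the labels. The model was tested on simulated data. The rule named 12 genes a direction, Erbb2, bounds, genes passing against YD or YC, and up to 4 members of each of 29 lists, of which some are described. Members and lists were chosen with earlier results of these data known. A member of 1 list is not reported here by name.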

Additional observations from a re-analysis of the deposited data

Results flagged for a closer look

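The following genes are given again because the difference between strains was itself past the threshold in limma (n = 2 pools each), with YE set against another strain that carries 1 restored site. Against YD the log2 differences were 0.89 for Pycr1, 0.87 for Slc25a17, -0.64 for Lrrc42, -2.23 for Smoc1 and -2.64 for Ptx3, each with YE and YD pools that did not overlap. Against YC the difference was -0.76 for BC006965, and the YC pools stood apart from the 10 others. The groups of 2 pools are too small for a test of single outlying pools.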

How the results depend on the processing

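The count of genes past the threshold in YE over NDL25 was 0 under 13 of 14 alternatives and 2 with the session as a random block. That block fitted a negative correlation of -0.12 between pools of 1 session. Leaving out 1 pool gave 0 to 2 genes. For YE over YD the count of 5 was kept with no filter on dim probes, with the filter on all 24 arrays and with marked spots kept. It was 0 with processed signals, median centring, the mean of probes, the deposited ratios, the 2 strains alone, a trend and robust prior, the replicate block and the session as a fixed or random block, 22 with first arrays and 1 with second arrays, and 0 to 3 without 1 pool. YE over YC gave 0 with processed signals, median centring, 2 strains alone, the trend and robust prior, the replicate block and the session as a fixed block, 111 with first arrays, where tumour RNA was in Cy3 for YE and in Cy5 for YC, 9 with second arrays, and 0 to 2 without 1 pool. The cause was not tested.

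Pool numbers are shared between strains, and with 2 pools a strain it was not settled whether the numbers pair the pools. On values centred per gene, YC and YD correlated at 0.52 (pools 1) and 0.53 (pools 2). The 2 YC pools correlated with each other at 0.15 and the 2 YD pools at 0.05. YE and YD correlated at 0.42 (pools 1) and -0.06 (pools 2), and the 2 YE pools at 0.33. Deviations of same-numbered pools correlated at 0.06 in YE and NDL25, 0.61 in YE and YD and 0.46 in YE and YC, and the replicate block gave counts of 0, 0 and 0.

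Signs turned in some small differences of YE over NDL25. With the deposited ratios they were -0.11 for Slc25a17 and -0.079 for Erbb4, and Slc25a17 in YE over YD was -0.42, since its brightest probe had a deposited ratio in 11 of 12 pools and another of its probes stood in. The session as a fixed block gave 0.038 for BC006965, 0.093 for Cxcl10 and -0.55 for Egfr. Median centring gave -0.058 for Erbb4 and -0.13 for Egfr, and Egfr was -0.11 with the mean of probes and -0.045 with second arrays. Leaving out 1 YE or NDL25 pool moved Ptx3 between -0.44 (without NDL25 pool 2) and 0.15 (without NDL25 pool 1), with 0.017 without YE pool 2, and Erbb2 between -0.25 (without NDL25 pool 1) and 2.03 (without NDL25 pool 2). It moved Csn2 between -0.051 (without NDL25 pool 2) and 1.72 (without NDL25 pool 1), and Erbb3 between -0.45 (without YE pool 2) and 0.013 (without YE pool 1). BC006965 ran from -0.026 (without YE pool 1) to 0.0051 (without YE pool 2), and Egfr from -0.098 (without YE pool 2) to 0.12 (without YE pool 1), with -0.014 without NDL25 pool 1. The cause was not tested. The 24 genes named by the rule and the medians of the antigen presentation, adipocyte, milk, endothelial, fibroblast, macrophage, skeletal muscle, endoplasmic reticulum stress, hypoxia and acute phase lists kept their sign in those of the 26 alternatives that gave them a value. The medians of the cell cycle and chemokine lists turned with the session as a fixed block. With 2 pools a strain and no shared session, small differences of YE over NDL25 are not detectable here. Large ones did not pass in the main fit either, including the largest of all genes, 3.53 for Serpina3g.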
